A study of Mus musculus with 6 samples.

Results

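Macrophage identity genes were examined in left ventricular RNA of CS-Mpc2-/- and fl/fl mice. The list held 10 genes that mark macrophages of the heart, chosen by name, and 9 of them were measured among 12072 genes. Of these 8 stood in the table under the listed symbol, and Adgre1 stood there under its older symbol Emr1, while Cd68, a lysosomal glycoprotein, was not analysed here. They were Cd163, Mrc1, Lyve1 and F13a1, called resident-type, Csf1r, Adgre1 and Lyz2, called general, and Lgals3 and Ctss, called lipid-associated.

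The libraries came from hearts of CS-Mpc2-/- mice, in which the mitochondrial pyruvate carrier gene Mpc2 is deleted, and of fl/fl mice, whose Mpc2 carries recombination sites and is otherwise intact. All mice were 30 weeks old and ate chow. Each group had 6 hearts, and RNA of 2 hearts was pooled per library, so there were 3 libraries per group and differences between the hearts of a pool cannot be seen. The promoter that drives the deletion is not given in the sources used here, so whether macrophages carry the deletion cannot be said. Values are read coverage per 1000000 units of a library's total (ppm).

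Macrophages of the adult heart are partly descended from cells that seeded the organ before birth and renew themselves there, and partly replaced by blood monocytes. Those that carry Cd163, Mrc1, Lyve1 and F13a1 lie along vessels and are held to be the long-lived population, while Csf1r and Adgre1 are found on most macrophages. Lgals3 and Ctss are among the genes that macrophages laden with lipid or debris carry at high level. In heart failure macrophages are known to clear dying cells and to exchange signals with fibroblasts.

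The libraries differed in ways that touch every result below. Mpc2 was at 14.9, 18.2 and 46.3 ppm in the libraries labelled CS-Mpc2-/- replicates 1, 2 and 3, against 45.2, 38.9 and 27.7 ppm in fl/fl replicates 1, 2 and 3, so the library labelled CS-Mpc2-/- replicate 3 goes against its label. It is kept with its label here. The library fl/fl replicate 3 stood apart from the other fl/fl libraries, with 30974 ppm of Myh6, the main cardiac myosin, against 65413 and 66012, the lowest Mpc2 of the group, and values for several macrophage genes within or near the CS-Mpc2-/- range. Whether the labels of these libraries are right was not tested, and every difference between the groups rests on them. The coverage behind the values, in 1000000 of each library's smallest step, was 278 to 319 in the CS-Mpc2-/- group and 92.9 to 389 in the fl/fl group, and fl/fl replicates 1 and 2 were the shallowest. The tissue label fits its markers, with Myh6 at 33936 to 40319 ppm in the CS-Mpc2-/- libraries and at 30974 to 66012 ppm in fl/fl.

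The start regions of 3 genes are shown because their coverage differed in direction. Ctss and Mrc1 were higher and Cd163 was lower on average in the CS-Mpc2-/- libraries. Each line gives the 250 bases before the annotated start, 5′ to 3′ on the gene's strand, from RefSeq on GRCm38.p6. Capitals mark GAGGAA or its reverse complement TTCCTC, a core of the sites bound by PU.1, the transcription factor that macrophages depend on.

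Ctss, chr3:95526536-95526785, plus strand: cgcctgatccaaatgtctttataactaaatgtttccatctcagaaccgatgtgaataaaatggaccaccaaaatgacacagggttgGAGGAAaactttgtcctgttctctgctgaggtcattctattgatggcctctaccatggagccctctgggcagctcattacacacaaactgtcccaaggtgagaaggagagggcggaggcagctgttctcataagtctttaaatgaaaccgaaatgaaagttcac
Mrc1, chr2:14229164-14229413, plus strand: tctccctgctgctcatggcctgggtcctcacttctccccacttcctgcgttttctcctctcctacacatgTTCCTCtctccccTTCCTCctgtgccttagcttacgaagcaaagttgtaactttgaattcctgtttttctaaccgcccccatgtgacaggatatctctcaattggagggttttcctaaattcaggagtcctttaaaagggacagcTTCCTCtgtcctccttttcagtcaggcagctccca
Cd163, chr6:124304401-124304650, plus strand: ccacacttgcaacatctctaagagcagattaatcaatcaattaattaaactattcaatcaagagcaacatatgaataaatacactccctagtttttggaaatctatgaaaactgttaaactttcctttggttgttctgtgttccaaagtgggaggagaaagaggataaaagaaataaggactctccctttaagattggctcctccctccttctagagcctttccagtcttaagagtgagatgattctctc

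In these windows the letters occurred 1 time before Ctss, 3 times before Mrc1 and 0 times before Cd163. RefSeq start windows of 300 bases, from 250 before to 50 after the start, were held for 6 of the 9 genes. The motif was found on either strand in 4 of the 7 windows of these genes, and in 28.3% of all 32851 such windows. The 4 belonged to 3 genes, Ctss, Mrc1 and F13a1. The windows of Cd163, Lgals3 and Lyz2 had 0 matches. Of these genes Lgals3 and Lyz2 averaged higher in CS-Mpc2-/-, while F13a1, with matches, was at about the same level. A match is a run of letters and not a shown binding site.

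The resident-type genes did not move in 1 direction. Cd163 and Lyve1 averaged lower in CS-Mpc2-/- than in fl/fl, F13a1 was at about the same level, and Mrc1 was higher, and none of the 4 passed the test over all genes. Cd163, the scavenger receptor for haemoglobin bound to haptoglobin, lies on chromosome 6 (mm10, 124304656 to 124330527, plus strand). It was at 38.2, 46.3 and 46.4 ppm in the libraries labelled CS-Mpc2-/- replicates 1, 2 and 3, against 61.4, 67.0 and 37.7 ppm in fl/fl replicates 1, 2 and 3. The groups overlapped only through fl/fl replicate 3, which had the least Cd163 of the 6 libraries. The means were 43.7 ± 4.71 ppm in CS-Mpc2-/- and 55.4 ± 15.6 ppm in fl/fl (SD, n = 3 each). In log2 terms that is -0.30 ± 0.23 (SE), and limma gave a p of 0.579 once adjusted over all genes by Benjamini-Hochberg. Without fl/fl replicate 3 the log2 difference was -0.55 ± 0.20 (SE, limma adjusted p = 0.0888), and without replicate 3 of both groups it was -0.60 ± 0.19 (SE, limma adjusted p = 0.0631). Leaving out the library labelled CS-Mpc2-/- replicate 3 gave -0.35, leaving out fl/fl replicate 1 gave -0.21, and leaving out fl/fl replicate 2 gave -0.14 (limma adjusted p = 0.619, 0.877 and 0.908).

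Mrc1, the mannose receptor of macrophages, is encoded on chromosome 2 (14229392 to 14332057, plus strand). Its coverage was 54.4, 48.9 and 51.3 ppm in the libraries labelled CS-Mpc2-/- replicates 1, 2 and 3, and 31.5, 43.1 and 48.4 ppm in fl/fl replicates 1, 2 and 3. Every CS-Mpc2-/- library was above every fl/fl library, though CS-Mpc2-/- replicate 2 exceeded fl/fl replicate 3 by little. The log2 difference was 0.34 ± 0.20 (SE, limma adjusted p = 0.469). It was 0.17 without fl/fl replicate 1 (limma adjusted p = 0.866). Leaving out the library labelled CS-Mpc2-/- replicate 3 gave 0.35.

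Lyve1, a receptor for hyaluronan that lymphatic endothelium also carries, lies on chromosome 7 (110850607 to 110863239, minus strand). It had 22.0, 24.9 and 17.5 ppm in the libraries labelled CS-Mpc2-/- replicates 1, 2 and 3, against 27.2, 22.7 and 20.1 ppm in fl/fl replicates 1, 2 and 3. The ranges lay across each other. The log2 difference was -0.12 ± 0.22 (SE, limma adjusted p = 0.843), with a 95% interval from -0.60 to 0.36. Its sign turned without the library labelled CS-Mpc2-/- replicate 3 (0.013), and it was -0.0085 without fl/fl replicate 1.

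F13a1, the catalytic subunit of a clotting factor that macrophages and platelets make, lies on chromosome 13 (36867178 to 37050244, minus strand). Its values were 86.1, 68.5 and 86.1 ppm in the libraries labelled CS-Mpc2-/- replicates 1, 2 and 3, and 86.6, 90.1 and 67.8 ppm in fl/fl replicates 1, 2 and 3. Each group had libraries near the top and near the bottom of this range. The log2 difference was -0.019 ± 0.18 (SE, limma adjusted p = 0.973), with a 95% interval from -0.42 to 0.38. Its sign depended on which library was left out (-0.14 to 0.089).

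**Figure D1:**
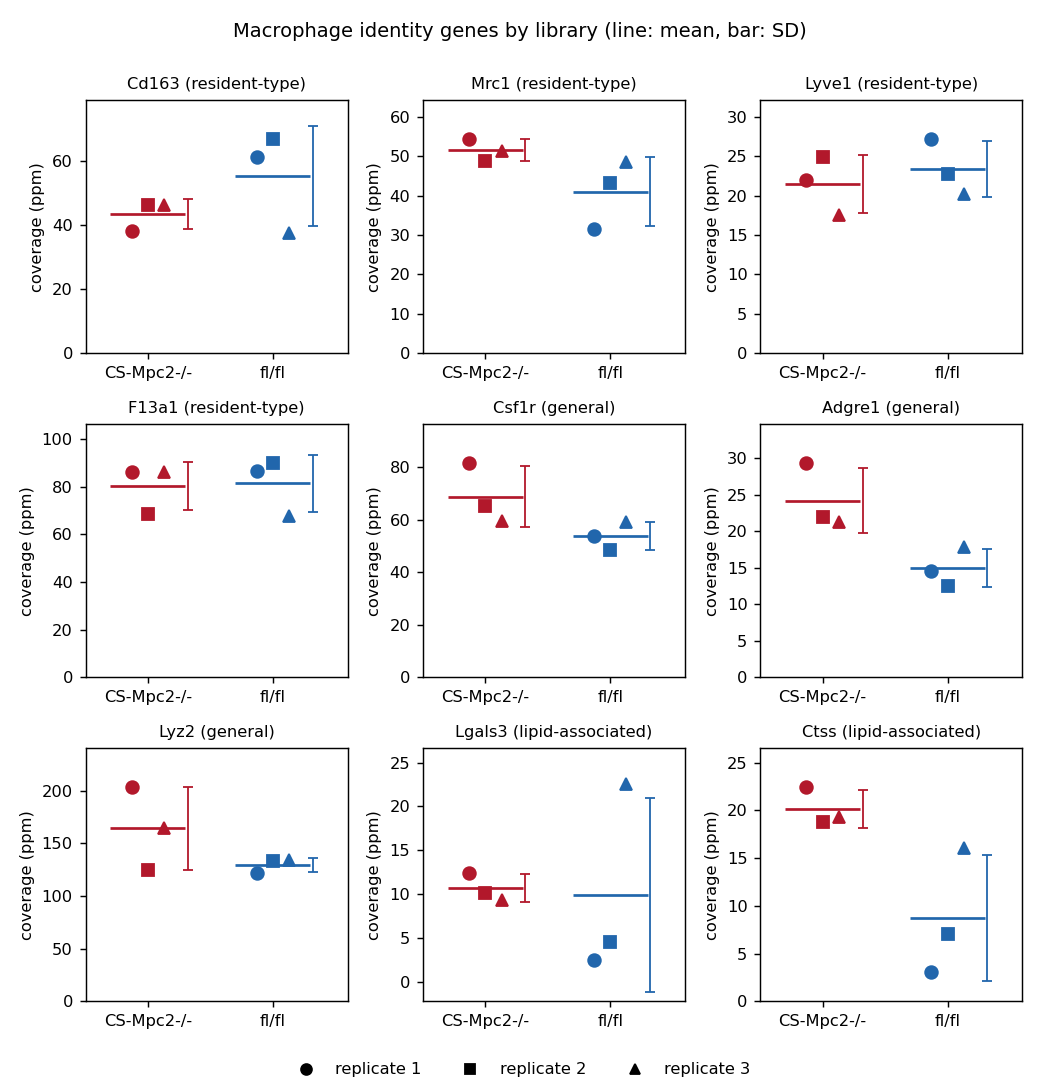
Coverage in ppm (linear axes) of the 9 genes in each library, with CS-Mpc2-/- on the left and fl/fl on the right of each panel, the group mean as a line and the SD as a bar (n = 3 each). For Mrc1, Csf1r, Adgre1 and Ctss all 3 CS-Mpc2-/- points lie above all 3 fl/fl points, and for Cd163 and Lgals3 the triangle of fl/fl replicate 3 lies far from the other fl/fl points.

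The general genes averaged higher in CS-Mpc2-/- than in fl/fl, and 2 of the 3 did so without overlap between groups, as did 8.01% of all genes. None passed the test over all genes. Adgre1, an adhesion receptor used as a surface mark of mouse macrophages, lies on chromosome 17 (57358691 to 57483527, plus strand). It was at 29.4, 22.0 and 21.2 ppm in the libraries labelled CS-Mpc2-/- replicates 1, 2 and 3, against 14.6, 12.6 and 17.8 ppm in fl/fl replicates 1, 2 and 3. All CS-Mpc2-/- values were above all fl/fl values. The means were 24.2 ± 4.49 ppm in CS-Mpc2-/- and 14.99 ± 2.65 ppm in fl/fl (SD, n = 3 each), a ratio of 1.61. In log2 terms that is 0.66 ± 0.23 (SE), for which limma gave an unadjusted p of 0.0149 and an adjusted p of 0.279. It was 0.74 without the library labelled CS-Mpc2-/- replicate 3, 0.78 ± 0.25 (SE) without fl/fl replicate 3 and 0.86 ± 0.27 (SE) without both, with limma adjusted p of 0.288, 0.0629 and 0.0526. It was 0.51 without CS-Mpc2-/- replicate 1 and 0.54 without fl/fl replicate 2 (limma adjusted p = 0.649 and 0.769).

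Csf1r, the receptor through which CSF1 and IL-34 keep macrophages alive, lies on chromosome 18 (61100598 to 61132149, plus strand), where its span overlaps that of the listed gene Hmgxb3. Its level was 81.6, 65.1 and 59.6 ppm in the libraries labelled CS-Mpc2-/- replicates 1, 2 and 3, and 53.7, 48.4 and 58.9 ppm in fl/fl replicates 1, 2 and 3. The groups did not overlap, but the library labelled CS-Mpc2-/- replicate 3 and fl/fl replicate 3 were nearly equal. The log2 difference was 0.34 ± 0.18 (SE, limma adjusted p = 0.437). It was 0.22 without CS-Mpc2-/- replicate 1, and leaving out the library labelled CS-Mpc2-/- replicate 3 gave 0.44.

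Lyz2, the lysozyme of macrophages and neutrophils, lies on chromosome 10 (117277331 to 117282321, minus strand). It had 204, 125 and 164 ppm in the libraries labelled CS-Mpc2-/- replicates 1, 2 and 3, against 121, 133 and 134 ppm in fl/fl replicates 1, 2 and 3. CS-Mpc2-/- replicates 1 and 3 were above the fl/fl range and replicate 2 was inside it. The difference of 0.31 ± 0.19 (SE, log2, limma adjusted p = 0.490) was 0.15 without CS-Mpc2-/- replicate 1 and 0.50 without CS-Mpc2-/- replicate 2.

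The level of Lyz2 is uncertain because of a neighbouring copy, Lyz1, on the same chromosome (117287797 to 117292868, minus strand). The coding sequences of the pair have 447 bases each and differ at 22 of them, an identity of 95.1%, and the longest stretch without a difference has 118 bases. The first 120 coding bases, from GENCODE M21, are shown so that this likeness can be seen, with differing bases in capitals.

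Lyz2, chr10:117282123-117282242, minus strand: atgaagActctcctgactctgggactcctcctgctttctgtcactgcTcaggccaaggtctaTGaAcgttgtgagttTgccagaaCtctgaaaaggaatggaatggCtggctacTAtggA
Lyz1, chr10:117292719-117292838, minus strand: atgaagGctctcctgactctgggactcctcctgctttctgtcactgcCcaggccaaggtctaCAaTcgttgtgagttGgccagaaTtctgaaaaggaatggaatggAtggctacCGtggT

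Of the 22 differences 11 fall in these 120 bases. How the authors assigned reads that match both genes is not given in the sources used here. Lyz1 coverage was 43.6, 28.0 and 24.5 ppm in the libraries labelled CS-Mpc2-/- replicates 1, 2 and 3, and 23.9, 16.9 and 33.4 ppm in fl/fl replicates 1, 2 and 3. Its ratio to Lyz2 was 0.149 to 0.225 in CS-Mpc2-/- and 0.127 to 0.250 in fl/fl, ranges that lay across each other.

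Of the lipid-associated genes, Ctss had the largest log2 difference of the 9, and the values of both turned on fl/fl replicate 3. Ctss, which encodes cathepsin S, a protease that trims the invariant chain of MHC class II and cuts elastin, lies on chromosome 3 (95526786 to 95556403, plus strand). It stood at 22.5, 18.8 and 19.3 ppm in the libraries labelled CS-Mpc2-/- replicates 1, 2 and 3, against 3.09, 7.08 and 16.0 ppm in fl/fl replicates 1, 2 and 3. The CS-Mpc2-/- libraries were close together and above all fl/fl libraries, which spread widely. The means were 20.2 ± 2.01 ppm in CS-Mpc2-/- and 8.73 ± 6.62 ppm in fl/fl (SD, n = 3 each), a ratio of 2.31. The log2 difference of 1.35 ± 0.41 (SE) had an unadjusted p of 0.00627 and an adjusted p of 0.239 in limma. Without fl/fl replicate 3 the difference was 1.88 ± 0.32 (SE, limma adjusted p = 0.00252), and without fl/fl replicate 1 the difference was 0.85 (limma adjusted p = 0.699). Since fl/fl replicate 3 holds the fl/fl value nearest to CS-Mpc2-/-, the p without it does not show a rise. Leaving out only the library labelled CS-Mpc2-/- replicate 3 gave 1.38 (limma adjusted p = 0.303).

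Lgals3, which encodes galectin-3, a secreted lectin of activated macrophages that is also linked to fibrosis, lies on chromosome 14 (47367751 to 47386160, plus strand). It had 12.5, 10.1 and 9.37 ppm in the libraries labelled CS-Mpc2-/- replicates 1, 2 and 3, against 2.43, 4.50 and 22.6 ppm in fl/fl replicates 1, 2 and 3. The fl/fl libraries held both the lowest values and the highest, with CS-Mpc2-/- in between. The means were 10.6 ± 1.61 ppm in CS-Mpc2-/- and 9.84 ± 11.1 ppm in fl/fl (SD, n = 3 each). In log2 terms they were 0.60 ± 0.55 apart (SE, limma adjusted p = 0.646). It was 1.41 ± 0.34 without fl/fl replicate 3 (SE, limma adjusted p = 0.0185), and leaving out the library labelled CS-Mpc2-/- replicate 3, fl/fl replicate 2 or fl/fl replicate 1 gave 0.68, 0.36 and 0.023 (limma adjusted p = 0.719, 0.906 and 0.991). Since fl/fl replicate 3 holds the extreme Lgals3 value, the p without it does not show a rise.

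With all 6 libraries limma placed 0 of the 9 genes past an adjusted p of 0.05 in either direction, as it did 0% of all genes. At an unadjusted p under 0.05, 2 of the 9 were higher, Ctss and Adgre1, where 8.08% of all genes were, and 0 were lower, where 5.43% were. The CS-Mpc2-/- values lay wholly above the fl/fl values for 4 of the 9 (Mrc1, Csf1r, Adgre1 and Ctss), against 8.01% of all genes, and wholly below for 0, against 6.48%. An exact permutation test of 3 against 3 libraries cannot go below 0.1, which it reached for these 4. The genes were chosen with earlier results of these data known, so these shares are a description. Without fl/fl replicate 3, left out with the values known, 2 of the 9 were higher at the adjusted threshold (Ctss and Lgals3), against 6.51% of all genes, and 0 were lower, against 4.4%. The groups were then wholly apart for 5 of the 9 with CS-Mpc2-/- higher, against 24.4% of all genes, and for 2 with CS-Mpc2-/- lower, against 18.9%. Without replicate 3 of both groups the same counts were 2, again Ctss and Lgals3, against 7.24%, and 0, against 5.3%. In the authors' deposited table the unadjusted p was 0.0375 for Adgre1 and 0.0457 for Ctss, and 0.107 to 0.907 for the other 7.

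**Figure D2:**
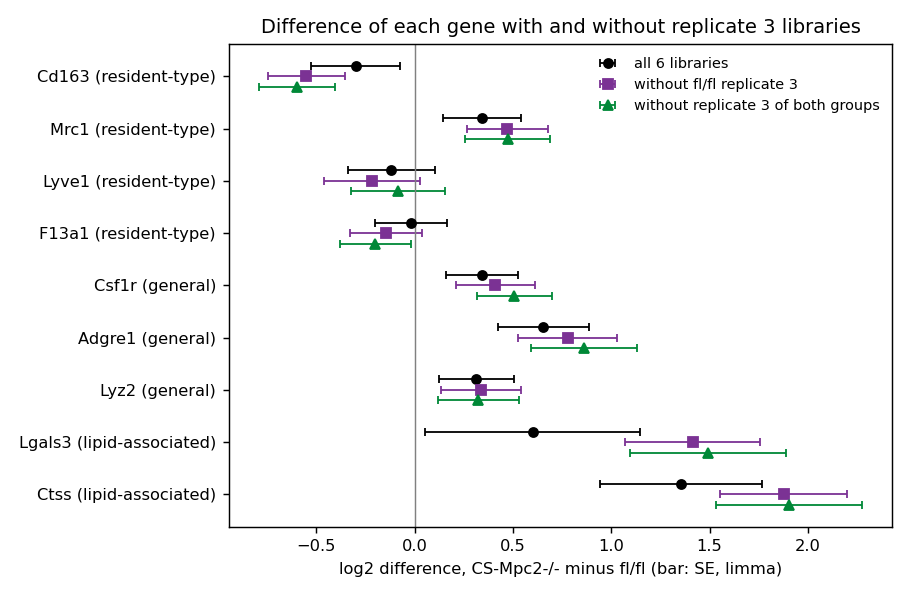
Log2 difference of each gene, CS-Mpc2-/- minus fl/fl, with the SE from limma, for all 6 libraries, without fl/fl replicate 3, and without replicate 3 of both groups. Ctss and Lgals3 move to the right without fl/fl replicate 3 (1.88 and 1.41) and Cd163 to the left (-0.55), while Lyz2 moves little.

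Relative to the sum of the other macrophage genes, the resident-type genes stood lower in all CS-Mpc2-/- libraries and in fl/fl replicate 3, and higher in fl/fl replicates 1 and 2. The 4 resident-type genes summed to 201, 189 and 201 ppm in the libraries labelled CS-Mpc2-/- replicates 1, 2 and 3, and to 207, 223 and 174 ppm in fl/fl replicates 1, 2 and 3. The 5 general and lipid-associated genes summed to 349.5, 241 and 274 ppm in those CS-Mpc2-/- libraries, against 195, 206 and 249.2 ppm in fl/fl. Most of that sum was Lyz2, whose level is uncertain because of Lyz1, with 204, 125 and 164 ppm in CS-Mpc2-/- and 121, 133 and 134 ppm in fl/fl. The resident-type sums of the groups overlapped, and the other sum was lowest in fl/fl replicates 1 and 2. The ratio of the first sum to the second was 0.574, 0.784 and 0.735 in CS-Mpc2-/- and 1.06, 1.08 and 0.699 in fl/fl. On the log2 scale its mean was -0.53 ± 0.24 in CS-Mpc2-/- and -0.11 ± 0.36 in fl/fl (SD, n = 3 each), a difference of -0.43, and the groups overlapped because fl/fl replicate 3 lay among the CS-Mpc2-/- libraries. No test is given, since it is a score over chosen genes. In bulk tissue, fewer cells of a type and less RNA per cell cannot be told apart.

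Single pairs of genes varied in how far they followed this. Cd163 to Ctss was 1.70, 2.47 and 2.41 in CS-Mpc2-/-, against 19.9, 9.47 and 2.35 in fl/fl. Cd163 to Csf1r was 0.468, 0.711 and 0.780 in CS-Mpc2-/-, against 1.14, 1.38 and 0.640 in fl/fl. For both pairs fl/fl replicates 1 and 2 stood above the other 4 libraries. Mrc1 to Csf1r, by contrast, was 0.666, 0.751 and 0.862 in CS-Mpc2-/- and 0.586, 0.890 and 0.822 in fl/fl, with means that differed by 0.0026 on the log2 scale. The ratio of Lgals3 to Csf1r was nearly the same in the 3 CS-Mpc2-/- libraries, 0.153 to 0.157, and spread from 0.0453 to 0.383 in fl/fl. These are ratios of coverage, not of transcript number.

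**Figure D3:**
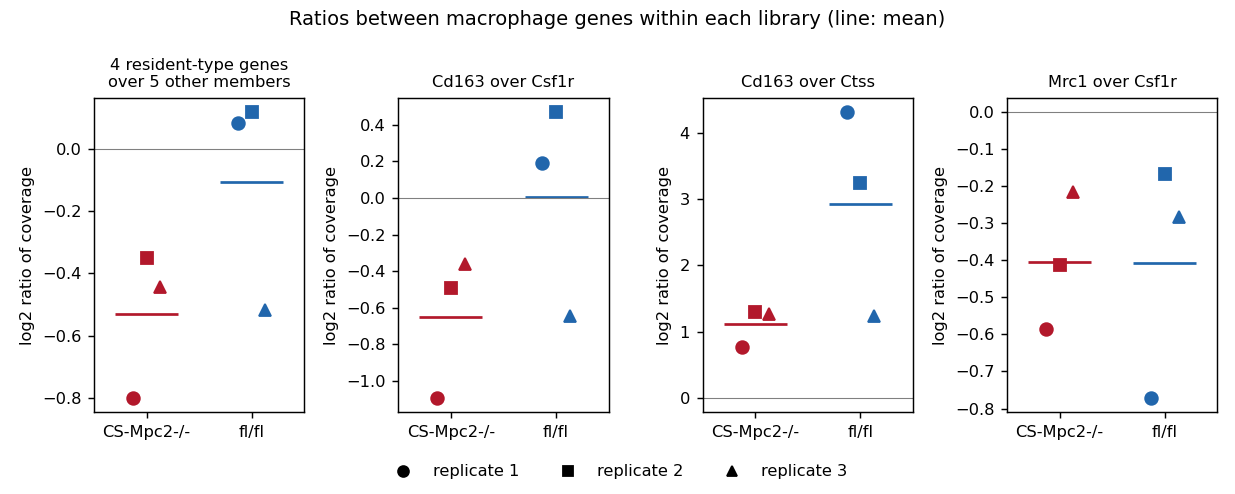
Log2 ratios of coverage within each library, CS-Mpc2-/- left and fl/fl right, with the group mean as a line, for the 4 resident-type genes over the 5 others, Cd163 over Csf1r, Cd163 over Ctss, and Mrc1 over Csf1r. In the first 3 panels fl/fl replicates 1 and 2 lie above all other libraries and fl/fl replicate 3 lies with CS-Mpc2-/-, and in the fourth the groups overlap throughout.

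Levels between genes were compared per kb of the longest coding transcript. Lyz2 was highest in both groups, at 125 ± 30.0 ppm per kb in CS-Mpc2-/- and 98.3 ± 5.32 in fl/fl (SD, n = 3 each), followed by F13a1 at 20.3 ± 2.57 in CS-Mpc2-/- and 20.6 ± 3.02 in fl/fl. In CS-Mpc2-/- Ctss (14.9 ± 1.48) and Csf1r (14.6 ± 2.44) came next and did not differ beyond their spread. Cd163 (9.83 ± 1.06), Mrc1 (9.59 ± 0.511), Lgals3 (7.50 ± 1.13), Adgre1 (7.47 ± 1.39) and Lyve1 (7.42 ± 1.28) followed, and neighbours in that order other than Mrc1 and Lgals3 lay within their spread. In fl/fl Cd163 (12.5 ± 3.50) and Csf1r (11.4 ± 1.12) came after F13a1, then Lyve1 (8.07 ± 1.23), Mrc1 (7.63 ± 1.62), Lgals3 (6.93 ± 7.81) and Ctss (6.44 ± 4.88), with Adgre1 lowest at 4.63 ± 0.818 ppm per kb. There F13a1 and Cd163, and Csf1r and Lyve1, lay apart beyond their spread, and the neighbours below Lyve1 did not. The places of Ctss and Lgals3 in fl/fl turned on 1 library. Without fl/fl replicate 3 their fl/fl means were 3.75 and 2.44 ppm per kb, both below Adgre1 at 4.19. In fl/fl replicate 3 itself Ctss was at 11.8 ppm per kb, above Mrc1 (9.02) and Cd163 (8.48), as in CS-Mpc2-/-.

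Further macrophage genes came from lists of the same classes, of which all measured members were counted and those with the smallest p are named. Measured were 15 of 25 further resident-type, 18 of 20 pan-macrophage and 22 of 25 lipid-associated genes. Of the other macrophage lists, 11 of 18 monocyte, 13 of 22 CSF1 axis and 13 of 14 transcription factor genes were measured. With all 6 libraries, limma placed 0 genes of the lists that follow past an adjusted p of 0.05. Of 15 further resident-type genes 1 was higher and 0 lower at an unadjusted p under 0.05, a share near the 8.08% of all genes, and their median log2 difference was 0.19 against 0.041 over all genes. That gene was Wfdc17, a small secreted protein, at 4.66, 2.06 and 3.49 ppm in CS-Mpc2-/- against 0.0108, 0.307 and 1.77 ppm in fl/fl, where the first fl/fl value is the smallest step of that library. Every gene analysed had a larger group mean of at least 700 coverage units before scaling to ppm. Wfdc17 is there only through its CS-Mpc2-/- values, so its difference does not show a rise. Its limma adjusted p was 0.270 with all libraries, 0.0266 without fl/fl replicate 3 and 0.0662 without replicate 3 of both groups. Mertk, a receptor with which macrophages engulf dying cells, had a log2 difference of 0.41 ± 0.24 and Ms4a7, a membrane protein of macrophages, 0.81 ± 0.46 (SE). Ms4a7, like Wfdc17, is analysed only through its CS-Mpc2-/- values (fl/fl mean 2.05 ppm), so its difference does not show a rise.

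Of 18 further pan-macrophage genes 9 were higher and 0 lower at an unadjusted p under 0.05 (8.08% and 5.43% of all genes), and the median log2 difference was 0.68. The CS-Mpc2-/- values lay wholly above fl/fl for 7 of them and wholly below for 0 (8.01% and 6.48% of all genes). Mpeg1, which encodes the pore-forming protein perforin-2, was at 37.6, 30.1 and 30.0 ppm in CS-Mpc2-/- against 15.5, 15.9 and 25.4 ppm in fl/fl, with no overlap. Its log2 difference was 0.78 ± 0.24 (SE, limma adjusted p = 0.239), close to that of Cybb, a subunit of the phagocyte oxidase (0.73 ± 0.24), and below that of Msr1, a scavenger receptor for modified lipoprotein (1.09 ± 0.35). Without fl/fl replicate 3, left out with the values known, 6 of the 18 were higher at the adjusted threshold and 0 lower (6.51% and 4.4% of all genes). Among the 6 is Cx3cr1, which, like Wfdc17, is analysed only through its CS-Mpc2-/- values. The median of this list relative to the mean of the 6 libraries was 0.60, -0.021 and 0.26 in the CS-Mpc2-/- libraries and -0.50, -0.23 and -0.0059 in fl/fl, so CS-Mpc2-/- replicate 1 was highest and replicate 2 was at the level of fl/fl replicate 3.

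Of 22 further lipid-associated genes 7 were higher and 0 lower at an unadjusted p under 0.05 (8.08% and 5.43% of all genes), with a median of 0.41. Among the 7, Spp1 and Trem2 are, like Wfdc17, analysed only through their CS-Mpc2-/- values, so their differences do not show a rise. By sign 17 averaged higher in CS-Mpc2-/- and 5 lower. Among the 5 were Fabp5 (-0.45 ± 0.32), Plin2 (-0.39 ± 0.18) and Lpl (-0.34 ± 0.22, SE, log2). Many genes of this list are also made by cardiomyocytes, fibroblasts or endothelium. Lgals1, galectin-1, was at 57.2, 51.1 and 41.3 ppm in CS-Mpc2-/- against 18.9, 23.3 and 40.0 ppm in fl/fl, a log2 difference of 0.90 ± 0.26 (SE, limma adjusted p = 0.225). Ctsk, a collagen-cutting cathepsin, had a difference of 0.88 ± 0.27 and Cd63, a membrane protein of lysosomes, 0.61 ± 0.21 (SE).

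Of 11 genes of monocytes and recruited macrophages 6 were higher and 0 lower at an unadjusted p under 0.05 (8.08% and 5.43% of all genes), and the median was 1.28. Without fl/fl replicate 3, left out with the values known, 6 were higher at the adjusted threshold (6.51% of all genes). S100a4 is in both counts and, like Wfdc17, is analysed only through its CS-Mpc2-/- values, so its difference does not show a rise. The same holds for Arg1 of this list, which is in neither count. Vcan, a matrix proteoglycan of monocytes and fibroblasts, was at 230, 130 and 138 ppm in CS-Mpc2-/- against 51.7, 48.1 and 112 ppm in fl/fl, a log2 difference of 1.28 ± 0.31 (SE, limma adjusted p = 0.220). Fn1, fibronectin, had 1.33 ± 0.38 and Hmox1, which breaks down haem, 1.35 ± 0.38 (SE). Ccr2, the receptor that brings monocytes into tissue, was at 4.66, 1.34 and 5.72 ppm in CS-Mpc2-/- and at 1.10, 4.34 and 5.08 ppm in fl/fl. Ly6c2, a surface protein of inflammatory monocytes, was at 16.1, 17.3 and 13.1 ppm in CS-Mpc2-/- and at 12.7, 16.8 and 11.8 ppm in fl/fl. For Ccr2 and Ly6c2, named after their values were seen as the monocyte-specific members of this list, the groups overlapped.

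Among 13 measured genes of the CSF1, IL-34 and chemokine axis, which holds Csf1r, 3 were higher and 0 lower at an unadjusted p under 0.05 (8.08% and 5.43% of all genes), with a median of 0.40. They were Csf2rb, a shared receptor chain for growth factors (0.97 ± 0.39), Cx3cl1, a membrane-bound chemokine (0.88 ± 0.32), and Il4ra, a receptor chain for IL-4 and IL-13 (0.65 ± 0.28, SE, log2). The ligand genes Csf1 and Il34, named for their role after their values were seen, were at 49.0 to 75.9 and 7.35 to 9.70 ppm in CS-Mpc2-/-, against 52.6 to 53.0 and 2.87 to 7.89 ppm in fl/fl. Of 13 macrophage transcription factor genes 0 were higher and 0 lower at an unadjusted p under 0.05, and the median was 0.043, against 0.041 over all genes. The smallest p-values there belonged to Mitf (-0.41 ± 0.20), Cebpa (0.66 ± 0.36) and Runx1 (0.68 ± 0.47, SE, log2). Sfpi1, the older symbol of the PU.1 gene, likewise named for its role, was at 2.91, 3.50 and 2.94 ppm in CS-Mpc2-/- and 3.48, 1.83 and 2.45 ppm in fl/fl. Sfpi1, like Wfdc17, is analysed only through its CS-Mpc2-/- values.

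**Figure D4:**
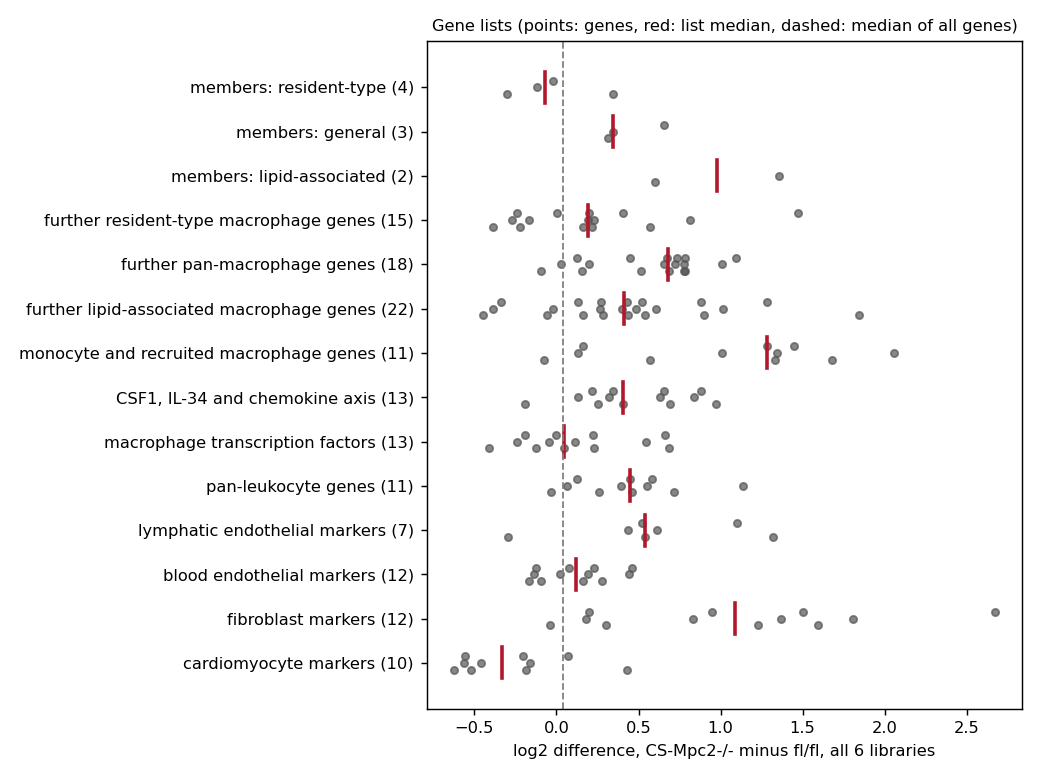
Log2 difference of each measured gene, CS-Mpc2-/- minus fl/fl with all 6 libraries, by list, with the number of genes in parentheses, the list median in red and the median of all genes (0.041) dashed. The resident-type genes and the transcription factors lie around the dashed line, the pan-macrophage genes mostly to its right (median 0.68), and the monocyte and fibroblast lists furthest right (1.28 and 1.09). In the monocyte list Ccr2 (0.13) and Ly6c2 (0.16), named after their values were seen, lie near the dashed line. The 6 genes of that list at an unadjusted limma p under 0.05 lie to the right of the line.

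Markers of other cells differed alongside some of these genes. All 12 fibroblast markers were measured and summed to 3525 to 7210 ppm in CS-Mpc2-/- and 2356 to 3455 ppm in fl/fl, with a median log2 difference of 1.09. At an unadjusted p under 0.05, 8 were higher (8.08% of all genes) and 0 lower, with the smallest p-values for the collagen genes Col1a1 (1.81 ± 0.43) and Col1a2 (1.37 ± 0.35) and for Pi16 (1.23 ± 0.29, SE, log2). Their highest sum was in CS-Mpc2-/- replicate 1, which was also highest for Mrc1, Csf1r, Adgre1, Lyz2 and Ctss. The 7 of 10 lymphatic endothelial markers that were measured summed to 367 to 459 ppm in CS-Mpc2-/- and 233 to 383 ppm in fl/fl, with a median of 0.54. Of these 6 averaged higher and 1, Prox1, lower (-0.30 ± 0.22, SE, log2), as Lyve1 did (-0.12). The smallest p-values there belonged to Reln (1.32 ± 0.45), Itga9 (0.52 ± 0.19) and Pdpn (1.10 ± 0.43, SE, log2). The 12 blood endothelial markers summed to 1611 to 2018 ppm in CS-Mpc2-/- and 1656 to 1866 ppm in fl/fl (median 0.12), with the smallest p-values for Vwf (0.46 ± 0.21), Pecam1 (0.28 ± 0.17) and Cldn5 (0.44 ± 0.32, SE, log2). The 10 cardiomyocyte markers, Myh6 among them, summed to 70949 to 79916 ppm in CS-Mpc2-/- and 71150 to 123169 ppm in fl/fl (median -0.33), and fl/fl replicate 3 had the lowest fl/fl sum. There Ryr2 (-0.63 ± 0.24), Myl3 (0.43 ± 0.18) and Actc1 (-0.56 ± 0.25, SE, log2) had the smallest p-values. The part of these cells in the macrophage results was not tested.

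The general leukocyte list had 11 of 12 genes measured, with sums of 137 to 191 ppm in CS-Mpc2-/- and 106 to 145 ppm in fl/fl and a median log2 difference of 0.45. At an unadjusted p under 0.05, 1 was higher, a share near the 8.08% of all genes. The smallest p-values belonged to the tetraspanin gene Cd53 (1.14 ± 0.45), Lcp1 (0.46 ± 0.22) and Hcls1 (0.45 ± 0.30, SE, log2). Cd53, like Wfdc17, is among the genes analysed only through its CS-Mpc2-/- values. So is Rac2 of the same list. Of 10 neutrophil markers 2 were measured, S100a9 and Csf3r, and they summed to 3.44 to 13.9 ppm in CS-Mpc2-/- and 1.04 to 6.96 ppm in fl/fl. Both are analysed only through their CS-Mpc2-/- values, so these sums do not show a rise. Of 14 T, B and NK cell markers 0 were among the genes analysed here. The platelet list, which bears on F13a1, had 3 of 7 genes measured with sums of 13.3 to 17.3 ppm in CS-Mpc2-/- and 11.4 to 13.8 ppm in fl/fl. Its genes were Itgb3 (0.44 ± 0.35), Pf4 (-0.27 ± 0.40) and Itga2b (0.073 ± 0.41, SE, log2). Pf4 is analysed only through its fl/fl values, so its difference does not show a fall. The dendritic cell list had 1 gene, Zbtb46, with 23.5 to 35.3 ppm in CS-Mpc2-/- and 20.1 to 33.5 ppm in fl/fl. The mast cell list had 1 gene, Kit, with 4.27 to 9.77 ppm in CS-Mpc2-/- and 7.19 to 11.7 ppm in fl/fl.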

How the data were processed

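Total RNA libraries depleted of ribosomal RNA were sequenced on an Ion Torrent Proton, per the labels' protocols. In the deposited table each library has a coverage signal per gene, and the column totals are nearly equal (261, in 1000000 units), so the authors had scaled them. The deposited table also gives the authors' ratio of group means and their unadjusted p-value. The submitters' processing notes name the mm10 build. Aligner, counting method, strandedness and gene models: not given in the sources used here. Sense and antisense coverage of overlapping genes therefore cannot be told apart, depth in reads is unknown, and no counting interval is given.

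Each value was scaled to a library total of 1000000 (ppm) and taken as log2(ppm + 1), which understates the fold change of a gene with low coverage. Groups were compared by limma 3.58.1 (eBayes with an intensity trend, group as the only term) under R 4.3.3. Tests were two-sided and adjusted by Benjamini-Hochberg across 12072 genes. The step was tested on simulated data. The replicates are separate pools of animals. Same-numbered libraries did not deviate together, so their numbers were not used as pairs. Positions and lengths came from GENCODE M21, which covered 99.4% of genes.

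The genes and lists were chosen with earlier results of these data known. All 9 genes were reported, and of each further list the 3 measured genes with the smallest unadjusted p. Csf1, Il34, Sfpi1, Ccr2, Ly6c2 and Myh6 were named besides, for their roles. Fabp5, Plin2, Lpl and Prox1 were named for averaging lower in CS-Mpc2-/-, against most of their lists. Alternatives were other scalings, filters, pseudocounts and variance estimates, the replicate number as a block, and libraries left out.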

Additional observations from a re-analysis of the deposited data

How the results depend on the processing

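With all 6 libraries 0 of the 9 genes and 0 of all genes passed the adjusted threshold in either direction, and this held under upper quartile and median-of-ratios scaling, a minimum mean of 5 ppm or no minimum, pseudocounts 0.1 and 5, no intensity trend, robust estimation and a correction for transcript length. With the replicate number as a block it was also 0. The correlation of same-numbered libraries' deviations over genes was 0.07, -0.04 and -0.07, so the numbers do not pair them. Leaving out 1 library each gave 0 to 2 of the 9 genes higher and 0 lower, and 0 to 786 of all genes higher and 0 to 531 lower, with calls made only without fl/fl replicate 3. Without replicate 3 of both groups 874 of all genes were higher and 640 lower, and 2 of the 9 were higher. The log2 ratio of resident-type to other genes differed by -0.43, by -0.63 to -0.29 with 1 library left out, and by -0.75 as a mean of log2 values, which weights the low genes Ctss and Lgals3 as much as the others. F13a1 ranged from -0.14 to 0.089 with 1 library left out, with a positive sign without CS-Mpc2-/- replicate 2 (0.089), fl/fl replicate 1 (0.03) or fl/fl replicate 2 (0.06). Lyve1 ranged from -0.23 to 0.013, positive only without CS-Mpc2-/- replicate 3, the library whose Mpc2 goes against its label. The cause was not tested. The other 7 genes kept their direction under all 17 alternatives. The length trend lowered Lyz2 to 0.19. In fl/fl replicates 1 and 2, 78 and 50 genes stood at the smallest step. Whether depth limits the low values of these libraries was not tested.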

Other observations

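The genes whose log2 coverage over the 6 libraries was most like that of Cd163, by Pearson's r, were Ndrg2 (0.99), a stress-responsive gene of astrocytes and muscle, Dnaja3 (0.99), a mitochondrial co-chaperone, Zfp553 (0.98), Aim1 as the table spells it (0.98), and Ppl (0.98), which encodes periplakin. Ndrg2 was at 477 to 558 ppm in CS-Mpc2-/- and 470 to 668 ppm in fl/fl, and, like Cd163, it was lowest in fl/fl replicate 3. Those most like Lgals3 were Hspa2 (0.98), a heat shock protein, Sgsh (0.98), a lysosomal sulfatase that degrades heparan sulfate, Gosr2 (0.98), a transport protein of the Golgi, Tmem106c (0.97) and Rnf34 (0.97), a ubiquitin ligase. Rnf34 was at 43.9 to 49.4 ppm in CS-Mpc2-/- and at 23.9, 34.3 and 55.3 ppm in fl/fl, highest in fl/fl replicate 3, as Lgals3 was. These are likenesses over 6 libraries that share group and depth, picked as the highest among genes averaging 5 ppm or more.

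Of 12 cell cycle genes 7 were measured, and 0 were higher or lower at an unadjusted p under 0.05 (limma). The proliferation marker Mki67 was at 38.4, 12.7 and 20.9 ppm in the libraries labelled CS-Mpc2-/- replicates 1, 2 and 3, against fl/fl values of 16.6, 9.58 and 13.3 ppm. Its log2 difference was 0.72 ± 0.35, beside 0.96 ± 0.50 for Top2a and 0.55 ± 0.44 for Ccna2 (SE). Mki67 was highest in CS-Mpc2-/- replicate 1, the library that was also highest for 5 of the 9 macrophage genes.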
